A study of Mus musculus with 16 samples.

Results

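The transcripts examined were that of Trp53, the gene of the transcription factor p53, and those of genes known as p53 targets, namely Cdkn1a, Mdm2, Ccng1, Phlda3, Trp53inp1, Zmat3, Sesn2 and Aen. They were taken by gene symbol, 9 of the 56748 genes listed, and read in all 16 samples of splenic memory CD4+ T cells lacking HP1α or HP1γ and of their wild-type (WT) littermates. The comparison of each knockout (KO) with its WT was made with DNA damage in mind and, in the HP1γ line, stress from Cre recombinase. Only in that line is Cre known to differ between KO and WT. The comparison of the WT groups asks whether the mouse lines differ by themselves.

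In unstressed cells the p53 protein is short-lived because Mdm2, a ubiquitin ligase and itself a p53 target, marks it for destruction. DNA breaks and other stresses stabilise the protein, mostly without a change in its mRNA, and it then binds paired half-sites in DNA and switches on genes that arrest the cell cycle, repair DNA or kill the cell. In T cells p53 and its target p21 restrain division, and Cre can cut DNA at sites that resemble loxP.

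HP1α (gene Cbx5) and HP1γ (gene Cbx3) are heterochromatin proteins that bind methylated histone H3, and bulk RNA-Seq was done on spleen memory cells sorted by surface markers that included CD4, high CD44 and low or no CD25, with 4 samples in each group. HP1α KO mice (Hp1a-/-) and their Hp1a+/+ littermates came from a floxed Hp1a allele excised by CMV-cre, which acts in all tissues, and from intercrosses of the heterozygotes, and whether CMV-cre was still carried is not stated. HP1γ KO mice were homozygous for a floxed Hp1g allele and carried Cd4-cre, which acts in the T cell lineage. Their littermate controls, called WT here, were homozygous for the same floxed allele and carried no Cre. Carriage of Cre and loss of HP1γ therefore cannot be told apart in that comparison. Both lines had a mixed 129/Sv and C57BL/6 background and the mice were 6 to 12 weeks old and sex-matched. Per the study's reporting summary, male mice were used, with the sequencing analyses in mind. Line, litter, the floxed Hp1g allele of the HP1γ controls and any order of handling cannot be told apart in a comparison between the lines. The labels give 4 samples a group and nothing more on separate animals, so the p-values measure the spread between these samples.

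Total counts ranged from 26694002 to 40199600 per sample, with a median of 32360684, and the estimated counts of the 9 genes lay between 60 (Phlda3) and 18810 (Trp53inp1). Levels of single genes are given as CPM, counts scaled to the size of the library after TMM normalization. The targeted gene Cbx5 measured 27.3 ± 2.88 CPM in HP1α KO and 40.6 ± 9.52 CPM in HP1α WT (SD, n = 4 each), groups that did not overlap, with a log2 fold change of -0.58 (SE 0.145, edgeR adjusted p = 0.946). Cbx3 measured 47.0 ± 1.77 CPM in HP1γ KO and 84.3 ± 8.57 CPM in HP1γ WT, with a log2 fold change of -0.82 (SE 0.0790, edgeR adjusted p = 0.00150). Transcripts that lack the deleted part can still be counted, so neither value measures the protein. Cd4 (1017 to 1367 CPM) and Cd44 (258 to 377 CPM) were present in every sample, and the summed level of 9 CD4 memory T cell markers ranged from 4152 to 4928 CPM. Foxp3, the regulatory T cell factor, was also present, at 57.6 to 163 CPM.

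Per transcript length, as TPM (the share of all transcripts in a sample) over the 16 samples, Trp53inp1 had the highest mean level (145, range 86.8 to 247), followed by Mdm2 (113, range 96.4 to 133), Trp53 (89.1, range 66.3 to 108) and Cdkn1a (74.0, range 22.1 to 158). Ccng1 had a mean of 37.5 TPM, Aen 21.6 TPM, Sesn2 12.6 TPM, Zmat3 5.47 TPM and Phlda3 3.27 TPM. The order of some neighbours differed between the lines or between samples. Trp53 exceeded Cdkn1a in 8 of 16 samples, which were those of the HP1α line. Cdkn1a exceeded Ccng1 in 11 and Trp53inp1 exceeded Mdm2 in 12, each with all samples of the HP1γ line among them. Mdm2 exceeded Trp53, Ccng1 exceeded Aen, Sesn2 exceeded Zmat3 and Zmat3 exceeded Phlda3 in all 16. In HP1α WT the mean of Mdm2 (111 TPM) stood above that of Trp53inp1 (107 TPM) and Cdkn1a was the fifth (40.3 TPM). In HP1γ WT Trp53inp1 came first (165 TPM) and Cdkn1a was the third (91.0 TPM), above Trp53 (80.1 TPM).

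**Figure D1:**
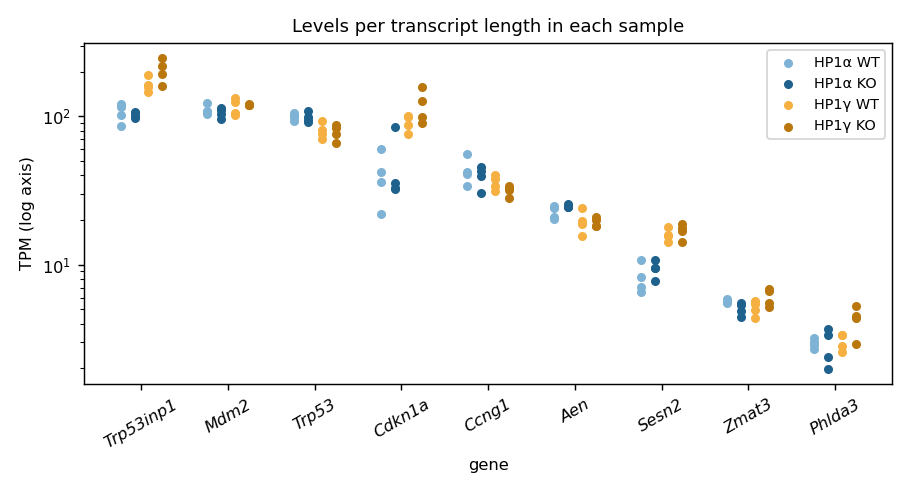
TPM (log axis) of each of the 9 genes in each of the 16 samples, 1 point a sample, coloured by group and ordered by mean level. Cdkn1a spans 22.1 to 158 TPM and the HP1γ samples hold its higher values, whereas Mdm2 stays between 96.4 and 133 TPM.

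All 9 genes are protein-coding in the GRCm39 annotation. Trp53 lies at chr11:69469669-69482701 on the plus strand and overlaps Wrap53 on the other strand, Mdm2 at chr10:117524780-117546730 on the minus strand, Cdkn1a at chr17:29309936-29319701 on the plus strand with Dino on the other strand, and Ccng1 at chr11:40639377-40646148 on the minus strand with Nudcd2 on the other. Trp53inp1 lies at chr4:11156412-11175230 (plus), Sesn2 at chr4:132219335-132237815 (minus), Zmat3 at chr3:32388941-32420163 (minus), Phlda3 at chr1:135693809-135697686 (plus) and Aen at chr7:78545602-78560957 (plus). Sesn2 overlaps the long non-coding RNA gene Gm12981 on the same strand, so strand would not separate their reads. It is the only same-strand overlap among the 9 genes. The kit kept strand, but whether the counting used it is not given in the sources used here. The longest annotated transcript of each gene was searched for sequence of at least 150 nt shared with other genes at 98% identity or more. That of Aen (11171 nt) shared such sequence with 6 other genes, that of Cdkn1a with 1 (Dino), and those of the others with none. Whether the shared stretches were part of the transcripts counted was not looked up. If they were, the counts of Aen in particular can include reads of other genes.

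The letters of the p53 consensus near these genes are shown because p53 is known to act on its targets through such DNA. A p53 site was searched as 2 copies of the p53 half-site consensus (purines, a C, a pair of A or T, a G and pyrimidines, which reads the same on both strands) separated by 0 to 13 bases, within 5000 bases of the annotated start. Such letters were found at 3 of the 9 genes (33.3%), against 4 of 27 other known targets (14.8%) and 659 of 21757 protein-coding genes (3.03%). They are printed 5′ to 3′ on the strand of the gene, with the half-sites in capitals.
Cdkn1a, GRCm39 chr17:29309880-29309911, plus strand, 41 bases upstream of the start: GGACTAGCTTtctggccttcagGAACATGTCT
Trp53inp1, GRCm39 chr4:11155112-11155132, plus strand, 1290 bases upstream: AAACATGTCCaGGACTAGCCT
Zmat3, GRCm39 chr3:32418480-32418499, minus strand, 1674 bases downstream of the start in an annotated exon: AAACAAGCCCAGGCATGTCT
The other 6 genes hold no such run of letters in this window, which says nothing on binding of p53 at other distances or at sites that depart from the consensus.

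In the RefSeq promoters (250 bases before to 50 after the start, GRCm38.p6), which list 7 of the 9 genes, at least 1 half-site was found for 5 (71.4%). The share over all genes listed was 2582 of 27025 (9.55%). For Trp53, Mdm2, Ccng1 and Aen these half-sites, in capitals with 10 bases on either side, were matched to 1 place each in GRCm39.
Trp53, chr11:69471100-69471129, plus strand: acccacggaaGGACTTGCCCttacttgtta
Mdm2, chr10:117546830-117546859, minus strand: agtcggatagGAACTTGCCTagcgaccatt
Ccng1, chr11:40646279-40646308, minus strand: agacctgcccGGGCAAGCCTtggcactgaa
Aen, chr7:78545675-78545704, plus strand: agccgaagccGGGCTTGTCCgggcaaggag
Cdkn1a, whose promoter holds the pair already printed, was the fifth, and the only one of the 7 with a full pair (14.3%, against 0.074% of all genes listed). The 10 bases directly after its half-site GAACATGTCT are tgacatgttc. They depart from the consensus only in their first letter, so the search did not take them as a partner. Which of these stretches p53 binds was not tested.

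**Figure D2:**
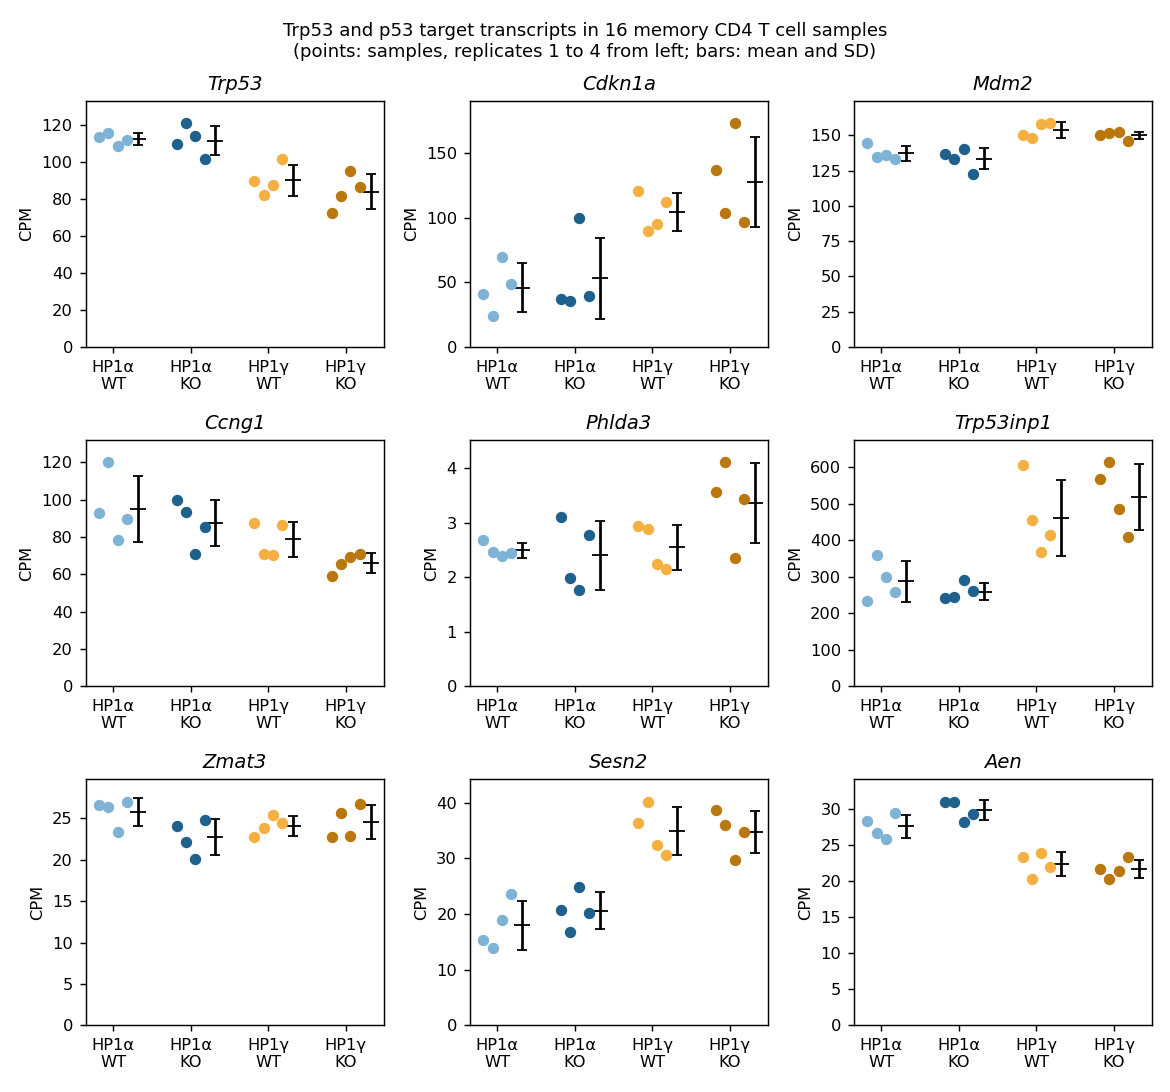
CPM of each gene in each sample, by group (1 point a sample, replicates 1 to 4 from the left, bars for mean and SD, n = 4). KO and WT points of a line overlap for all 9 genes, and in Sesn2, Trp53inp1, Mdm2, Trp53 and Aen the 8 HP1α samples lie apart from the 8 HP1γ samples.

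Loss of HP1α was not accompanied by a detectable change in any of the 9 transcripts. Trp53 was at 109, 121, 114 and 102 CPM in HP1α KO and at 113, 116, 109 and 112 CPM in HP1α WT. These groups overlapped and had the same mean of 112 CPM, with a log2 fold change of -0.01 (SE 0.0605, 95% interval -0.15 to 0.12). Mdm2, the negative regulator of p53, was at 137, 134, 140.1 and 123 CPM in KO and at 145, 135, 136 and 133 CPM in WT (log2 fold change -0.04, 95% interval -0.17 to 0.08).

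Cdkn1a encodes p21, the cyclin-dependent kinase inhibitor that carries out cell cycle arrest. It was at 37.4, 35.9, 100.2 and 39.3 CPM in HP1α KO and at 40.9, 24.1, 69.6 and 48.8 CPM in HP1α WT. The samples numbered 3 were the highest of either group, and the groups overlapped. The log2 fold change was 0.22 (SE 0.382, 95% interval -0.63 to 1.06), the widest interval of the 9, and without HP1α KO replicate 3 it was -0.29. Ccng1, which encodes cyclin G1, a partner of a phosphatase that acts on Mdm2, was at 100.0, 93.6, 71.1 and 85.5 CPM in KO and at 92.6, 120.0, 78.5 and 89.6 CPM in WT (log2 fold change -0.12, 95% interval -0.42 to 0.17).

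Among the stress and cell death genes, Trp53inp1, which encodes a nuclear partner of p53 that also promotes autophagy, was at 242, 244, 291 and 260.2 CPM in HP1α KO and at 233, 359, 299.6 and 258 CPM in WT (log2 fold change -0.15, 95% interval -0.42 to 0.12). Aen, an exonuclease of apoptosis, was at 28.2 to 31.0 CPM in KO and 25.9 to 29.5 CPM in WT (log2 fold change 0.11, 95% interval -0.04 to 0.26). Phlda3, an inhibitor of the kinase Akt, was at 1.77 to 3.11 CPM and 2.38 to 2.68 CPM (log2 fold change -0.05, 95% interval -0.52 to 0.42). Both pairs of groups overlapped. Zmat3, an RNA-binding zinc finger protein, was at 24.1, 22.2, 20.0 and 24.8 CPM in KO and at 26.6, 26.4, 23.3 and 27.0 CPM in WT. Its groups overlapped as well, although it came nearest to the threshold, with a log2 fold change of -0.18 (SE 0.0831, 95% interval -0.37 to 0.00, edgeR unadjusted p = 0.0519). Sesn2, a leucine sensor that restrains mTORC1 and is induced by p53 and by ATF4, was at 16.8 to 24.8 CPM in KO and 13.9 to 23.6 CPM in WT (log2 fold change 0.20, 95% interval -0.18 to 0.58).

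By edgeR's quasi-likelihood test, 0 of the 9 genes were called at an adjusted p under 0.05 (adjusted p from 0.946 to 0.991), beside 0 of 14881 genes tested (0%), and 0 had an unadjusted p under 0.05, beside 635 genes (4.27%). DESeq2 and limma called 0 of the 9 as well. The KO and WT groups did not separate for any of the 9, beside 3.11% of all genes that did. The median log2 fold change was -0.04 over the 9 and 0.00 over all genes tested, and 8 of the 9 intervals lay within -1 and 1, Cdkn1a being the exception. The summed level of 4 naive T cell markers was 1854 to 1975 CPM in HP1α KO and 1669 to 1812 CPM in WT (exact permutation p = 0.0286, the smallest that 4 against 4 allows, adjusted p = 0.343 over 24 tests), in cells sorted as memory cells. The 8 B cell markers all had a positive log2 fold change in HP1α KO (median 0.41, 0 called by edgeR), with summed levels of 450.1 to 786 CPM in KO and 399 to 566 CPM in WT (exact permutation p = 0.200, adjusted p = 0.610). The part of either list in these values was not tested. In bulk samples, fewer cells of a type and less RNA per cell cannot be told apart.

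**Figure D3:**
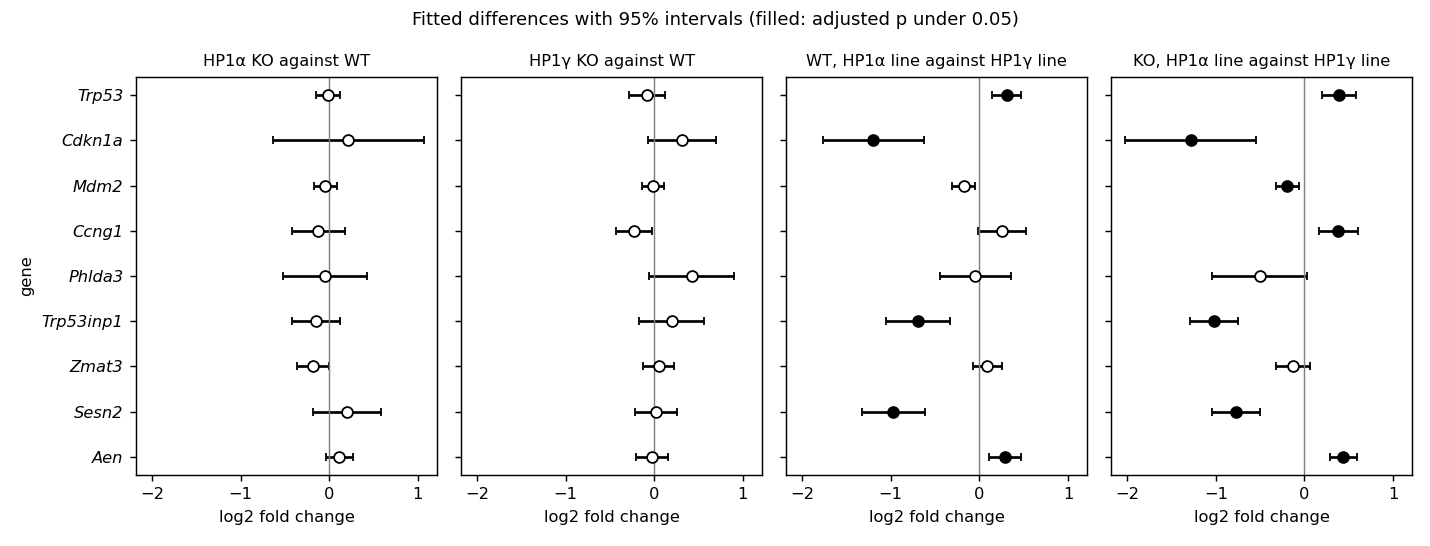
Log2 fold changes of the 9 genes with 95% intervals from edgeR, 1 panel a comparison, filled where the adjusted p is under 0.05. No point is filled in either KO against WT panel, 5 are filled between the WT groups and 7 between the KO groups, where Cdkn1a lies at -1.20 and -1.29.

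Loss of HP1γ together with Cd4-cre was likewise not accompanied by a call among the 9 genes, and the largest differences were in Phlda3, Cdkn1a and Ccng1. Trp53 was at 72.4, 81.6, 95.2 and 86.6 CPM in HP1γ KO and at 89.4, 81.9, 87.4 and 102 CPM in HP1γ WT. These overlapping groups gave a log2 fold change of -0.08 (SE 0.0924, 95% interval -0.29 to 0.13). Mdm2 was at 150.1, 152, 152 and 146 CPM in KO and at 150.3, 148, 158 and 159 CPM in WT (log2 fold change -0.01, 95% interval -0.14 to 0.11).

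Cdkn1a was at 137, 104, 173 and 97.1 CPM in HP1γ KO and at 121, 89.8, 95.4 and 112 CPM in HP1γ WT. The highest values were those of KO replicates 3 and 1, but the other KO samples lay within the WT range, and the log2 fold change was 0.31 (SE 0.174, 95% interval -0.08 to 0.70, edgeR adjusted p = 0.502). Ccng1 was at 59.0, 65.6, 69.1 and 70.6 CPM in KO and at 87.5, 70.7, 70.6 and 86.6 CPM in WT. Its KO range ended where the WT range began, and its log2 fold change of -0.23 (SE 0.0921, 95% interval -0.44 to -0.03) had an edgeR p of 0.0295 before and 0.382 after adjustment. The direction of Ccng1 was opposite to that of Cdkn1a.

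Phlda3 was at 3.57, 4.11, 2.36 and 3.43 CPM in HP1γ KO and at 2.93, 2.89, 2.25 and 2.15 CPM in WT. All KO samples but replicate 3 stood above the WT samples, at 71 to 134 counts a sample in this line, and the log2 fold change was 0.42 (SE 0.214, 95% interval -0.05 to 0.90, edgeR adjusted p = 0.471). Trp53inp1 was at 568, 614, 486 and 409 CPM in KO and at 606, 456, 367 and 415 CPM in WT (log2 fold change 0.19, 95% interval -0.17 to 0.56). Zmat3 (22.8 to 26.8 CPM against 22.7 to 25.4 CPM), Sesn2 (29.6 to 38.8 CPM against 30.6 to 40.2 CPM) and Aen (20.3 to 23.4 CPM against 20.3 to 23.9 CPM) had log2 fold changes of 0.05, 0.02 and -0.02.

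By edgeR, 0 of the 9 genes passed an adjusted p of 0.05 (adjusted p from 0.382 to 0.966), beside 49 of 14975 genes (0.327%), and 1, Ccng1, had an unadjusted p under 0.05, beside 1784 genes (11.9%). DESeq2, which called 252 genes in all, and limma called 0 of the 9. The groups overlapped for all 9, beside 7.59% of all genes for which they did not. All 9 intervals lay within -1 and 1, that is, changes of more than 2-fold were outside them. Summed haemoglobin and other erythroid markers ranged from 80.1 to 1176 CPM in HP1γ KO and from 45.1 to 522 CPM in WT (exact permutation p = 0.114, adjusted p = 0.610), and their part in these values was not tested.

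The effects of the knockouts were compared with each other as an interaction over the 16 samples. It was called for 0 of the 9 genes by edgeR (adjusted p from 0.539 to 0.973), beside 8 of 15776 genes (0.0507%), with 0 of the 9 at an unadjusted p under 0.05 (9.58% of all genes) and 0 called by DESeq2 or limma. The difference was -0.22 on the log2 scale for Zmat3 (95% interval -0.46 to 0.01), -0.46 for Phlda3 (-1.08 to 0.16) and -0.33 for Trp53inp1 (-0.81 to 0.14). That of Cdkn1a, -0.09, had an interval from -1.07 to 0.90. The intervals of Cdkn1a and Phlda3 reached past -1, so a 2-fold difference between the effects in that direction was not excluded for these genes.

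The WT groups of the lines differed in several of the 9 genes, and not in one direction. Cdkn1a, Sesn2 and Trp53inp1 were lower and Trp53 and Aen higher in HP1α WT than in HP1γ WT. These are the same WT samples that served as controls above.

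Cdkn1a in HP1α WT (40.9, 24.1, 69.6 and 48.8 CPM, mean 45.8 ± 18.9, SD, n = 4) was below every HP1γ WT sample (121, 89.8, 95.4 and 112 CPM, mean 105 ± 14.4). The log2 fold change was -1.20 (SE 0.258, 95% interval -1.77 to -0.63, edgeR adjusted p = 0.0173), that is, 2.29-fold lower in HP1α WT, and Cdkn1a was the one member past an absolute log2 fold change of 1, beside 282 genes (1.9%). The call was not kept without HP1α WT replicate 1 (adjusted p = 0.0639) or without HP1γ WT replicate 1 (adjusted p = 0.0549). Sesn2 was at 15.4, 13.9, 18.9 and 23.6 CPM in HP1α WT and at 36.5, 40.2, 32.3 and 30.6 CPM in HP1γ WT. The groups lay apart, with a log2 fold change of -0.97 (SE 0.162, 95% interval -1.33 to -0.61, edgeR adjusted p = 0.00663), and Sesn2 was called whichever sample was left out.

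Trp53inp1 was at 233, 359, 299.6 and 258 CPM in HP1α WT and at 606, 456, 367 and 415 CPM in HP1γ WT. The nearest samples, at 359 and 367 CPM, were close, but the groups did not overlap, and the log2 fold change was -0.69 (SE 0.162, 95% interval -1.05 to -0.34, edgeR adjusted p = 0.0230). Trp53 itself ran the other way, at 113, 116, 109 and 112 CPM in HP1α WT and 89.4, 81.9, 87.4 and 102 CPM in HP1γ WT. The groups were apart, with a log2 fold change of 0.31 (SE 0.0727, 95% interval 0.15 to 0.47, edgeR adjusted p = 0.0240). Aen was at 28.4, 26.7, 25.9 and 29.5 CPM in HP1α WT and 23.4, 20.3, 23.9 and 21.9 CPM in HP1γ WT, with a log2 fold change of 0.29 (SE 0.0818, 95% interval 0.11 to 0.47, edgeR adjusted p = 0.0429).

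Mdm2 was below the HP1γ WT samples in every HP1α WT sample (133 to 145 CPM against 148 to 159 CPM), but its log2 fold change of -0.18 (SE 0.0588) had an edgeR adjusted p of 0.0733, and on the TPM scale it was -0.06 (limma). Ccng1 (log2 fold change 0.26, 95% interval -0.01 to 0.53), Zmat3 (0.09, -0.08 to 0.26) and Phlda3 (-0.05, -0.45 to 0.35) had overlapping groups and were not called. In all, 5 of the 9 were called, beside 12.8% of the 14804 genes tested, 2 of them higher in HP1α WT (4.55% of all genes) and 3 lower (8.25%), and 6 had groups that did not overlap, beside 19.6%. The number of members called fell to 1 (Sesn2) when HP1α WT replicate 1 or HP1γ WT replicate 1 was left out, with adjusted p-values of 0.0759 and 0.0720 for Trp53, 0.0761 and 0.0622 for Trp53inp1 and 0.119 and 0.0780 for Aen. It was 2 (Cdkn1a and Sesn2) without HP1γ WT replicate 2 or HP1α WT replicate 4, and 3 (with Trp53inp1) without HP1α WT replicate 2.

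Marker genes of other cells were also compared between the WT groups, and no summed level differed at an adjusted p under 0.05. The summed level of 8 B cell markers, most of it Ighm, was 399 to 566 CPM in HP1α WT and 310.3 to 370 CPM in HP1γ WT (exact permutation p = 0.0286, adjusted p = 0.343). By edgeR 0 of the 8 were called. The sum of 5 plasma cell markers was 119 to 185 CPM in HP1α WT and 172 to 215 CPM in HP1γ WT (exact permutation p = 0.0571, adjusted p = 0.457). Of the 5, Xbp1 had the highest median over the 16 samples (131 CPM). In HP1α WT 3 of the 5 were called lower, beside 8.25% of all genes. The part of either list in the differences of Cdkn1a, Sesn2, Trp53inp1, Trp53 and Aen was not tested.

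The KO groups, which share no sample with the WT comparison, were set against each other after the WT values were seen. HP1α KO and HP1γ KO differed in 7 of the 9 genes by edgeR, beside 32.8% of 15020 genes, 3 of them higher in HP1α KO (16% of all genes) and 4 lower (16.8%), and 5 of these 7 were the genes called between the WT groups. Sesn2 (20.7, 16.8, 24.8 and 20.3 CPM in HP1α KO against 38.8, 35.9, 29.6 and 34.8 CPM in HP1γ KO) had a log2 fold change of -0.77 (SE 0.123, edgeR adjusted p = 0.00239), and Trp53inp1 one of -1.02 (SE 0.123, edgeR adjusted p = 0.000921). Both had groups that did not overlap, as did 6 of the 9, beside 32.9% of all genes.

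Cdkn1a had the largest log2 fold change, -1.29 (SE 0.334, edgeR adjusted p = 0.0155), although HP1α KO replicate 3 (100.2 CPM) lay within the HP1γ KO range. Mdm2 was lower in HP1α KO (-0.19, adjusted p = 0.0306 by edgeR), and Trp53 (0.39, adjusted p = 0.00859), Aen (0.44, adjusted p = 0.00222) and Ccng1 (0.38, adjusted p = 0.0152) were higher. The sign was that of the WT comparison in 8 of the 9 genes. Zmat3 was the exception, at -0.13 between the KO groups and 0.09 between the WT groups, and it was called in neither. Markers of other cells also differed between the KO groups. All 4 erythroid markers tested (median log2 fold change -2.84) and 3 of 5 plasma cell markers were called lower in HP1α KO by edgeR, beside 16.8% of all genes. Of 8 B cell markers, 1 was called higher and 0 lower. The part of these cells in the differences of the 9 genes was not tested.

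With all 8 samples of a line pooled, the lines did not overlap in 5 of the 9 genes, beside 9.03% of 15776 genes, 2 of them higher in the HP1α line (4.11%) and 3 lower (4.92%). Sesn2 reached from 13.9 to 24.8 CPM in the HP1α line and from 29.6 to 40.2 CPM in the HP1γ line. Trp53inp1 reached from 233 to 359 CPM and from 367 to 614 CPM, and Mdm2 from 123 to 145 CPM and from 146 to 159 CPM. Trp53 (102 to 121 CPM in the HP1α line, 72.4 to 102 CPM in the HP1γ line) and Aen (25.9 to 31.0 CPM and 20.3 to 23.9 CPM) were higher in the HP1α line, Trp53 by a narrow gap between 101.7 and 101.6 CPM. Cdkn1a, with medians of 40.1 and 108 CPM, overlapped through 1 HP1α KO sample.

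Other genes of the p53 pathway were read from lists of known targets and regulators. Of 28 other direct targets, 25 passed the filter on low counts. In either knockout 0 of these 25 were called by edgeR, with median log2 fold changes of -0.02 (HP1α) and -0.04 (HP1γ) against 0.00 over all genes. The members of lowest p in HP1α KO were Plk2, a polo-like kinase (31.0 ± 4.32 CPM in KO, 35.4 ± 0.598 in WT, log2 fold change -0.19), and Gtse1 (-0.32). In HP1γ KO they were Plk2 again (42.3 ± 3.24 CPM in KO, 52.5 ± 7.43 in WT, log2 fold change -0.29, edgeR adjusted p = 0.348) and Rps27l (-0.18).

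Between the WT groups 6 of the 25 were called, 1 higher and 5 lower in HP1α WT, beside 12.8% of all genes. Ppm1d, the phosphatase Wip1 that dampens p53, was at 28.9 ± 1.08 CPM in HP1α WT and 44.1 ± 5.03 CPM in HP1γ WT (SD, n = 4 each, log2 fold change -0.62, edgeR adjusted p = 0.00338). Perp, a membrane protein of p53-dependent apoptosis, was at 2.31 ± 0.355 and 5.02 ± 0.813 CPM (log2 fold change -1.13, edgeR adjusted p = 0.00617), and Plk2 at 35.4 ± 0.598 and 52.5 ± 7.43 CPM (-0.58, edgeR adjusted p = 0.00644). The groups of all of these lay apart.

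Bbc3 and Pmaip1, which encode the death-promoting Bcl-2 family proteins Puma and Noxa, were also lower (log2 fold changes -0.57 and -0.76), with overlapping groups. Xpc, which recognises DNA lesions in nucleotide excision repair, was higher in HP1α WT (0.43). Between the KO groups 7 of the 25 were called, a share no higher than the 32.8% of all genes, and 5 of these were among the 6 called between the WT groups (Ppm1d, Perp, Plk2, Pmaip1 and Xpc), and 22 of the 25 had the same sign in both. The median over the 25 was -0.09 between the WT groups, against 0.02 over all genes.

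**Figure D4:**
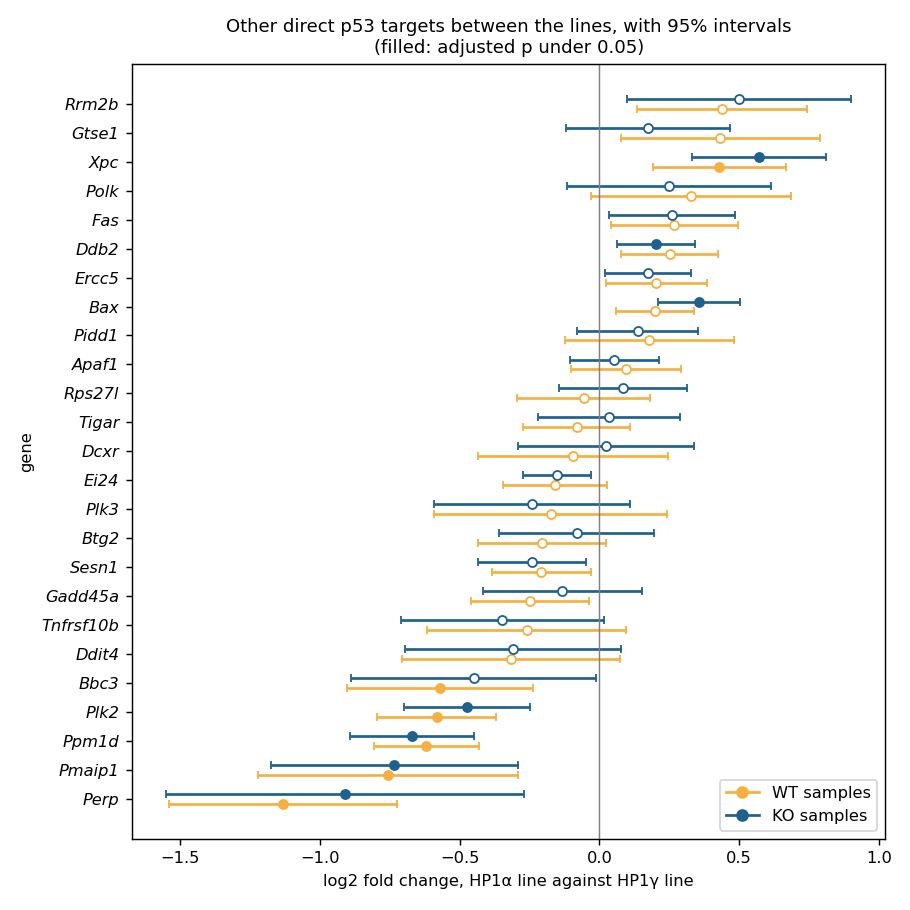
Log2 fold change of the HP1α line against the HP1γ line for the 25 other direct p53 targets tested, with 95% intervals, in the WT samples and in the KO samples (filled where the edgeR adjusted p is under 0.05). Perp, Pmaip1, Ppm1d and Plk2 are filled on the lower side in both, and Xpc on the higher side.

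Of 19 p53 regulators, 17 were tested and 0 were called in either knockout by edgeR. Hipk2, a kinase that phosphorylates p53, was at 59.8 ± 3.66 CPM in HP1γ KO and 49.4 ± 2.21 CPM in WT, groups that did not overlap (log2 fold change 0.30, edgeR adjusted p = 0.127), and Chek2, a checkpoint kinase, was at 0.945 ± 0.183 and 1.48 ± 0.188 CPM (-0.62, edgeR adjusted p = 0.367). In HP1α KO the kinases Prkdc and Atr had log2 fold changes of -0.20 and -0.27 (edgeR adjusted p = 0.946 for both). Between the WT groups 3 of 17 were called, near the share of all genes (12.8%). Mdm4, the Mdm2 relative that holds p53 inactive, was higher in HP1α WT (282 ± 41.1 CPM against 210.4 ± 16.3 CPM, log2 fold change 0.41, edgeR adjusted p = 0.0270), and the deacetylase Sirt1 (-0.63) and the deubiquitinase Usp7 (-0.24) were lower. Between the KO groups, 2 of the 17 were called higher in HP1α KO and 7 lower, beside 16% and 16.8% of all genes.

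DNA break signalling and repair genes, of which all 18 were tested, had 0 calls by edgeR in either knockout. In HP1γ KO, Brca1 (5.87 ± 0.768 CPM in KO, 8.12 ± 1.16 in WT, log2 fold change -0.45, edgeR adjusted p = 0.312) and H2ax (-0.23, edgeR adjusted p = 0.368) had groups that did not overlap, as did 5 of the 18 in all, beside 7.59% of all genes. In HP1α KO this held for 1 of the 18, Rnf8 (log2 fold change 0.19), beside 3.11% of all genes, and Rif1 was at -0.21. Between the WT groups Xrcc6 (0.35) and Rad50 (0.47), genes of break end binding, were called higher in HP1α WT, and these 2 of 18 are about the share of all genes called (12.8%). Between the KO groups, 3 of the 18 were called higher in HP1α KO and 1 lower, beside 16% and 16.8% of all genes.

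The cell cycle genes known to be lowered through p21 had mostly lower values than in WT in both knockouts, with 0 calls by edgeR. Of 18 tested, 18 had a log2 fold change below 0 in HP1α KO (median -0.31) and 17 in HP1γ KO (median -0.19), against medians of 0.00 over all genes. E2f1 was at 8.07 ± 1.12 CPM in HP1α KO and 9.98 ± 0.685 CPM in WT (log2 fold change -0.31) and Birc5 at 11.1 ± 1.98 and 15.6 ± 4.38 CPM (-0.49), each with an edgeR adjusted p of 0.946. Ccna2 (-0.43) and Bub1 (-0.45) led in HP1γ KO, with edgeR adjusted p-values of 0.384 and 0.395. Such genes rise and fall together with the share of dividing cells, so they are not separate observations.

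Between the WT groups 15 of the 18 were above 0 in HP1α WT (median 0.28), and Plk1, a mitotic kinase, was called (11.7 ± 2.80 CPM against 7.61 ± 0.711 CPM, log2 fold change 0.61, edgeR adjusted p = 0.0383). It was the only call among the 18, beside 12.8% of all genes. Between the KO groups 13 of the 18 were above 0 and 0 were called, beside 32.8% of all genes. Sesn2 also answers to ATF4, the factor of amino acid and endoplasmic reticulum stress. Of 9 ATF4 targets, 7 were tested and 0 were called by edgeR in either knockout or between the WT groups, although Asns, asparagine synthetase, was at 1.15 ± 0.402 CPM in HP1α WT and 2.24 ± 0.502 CPM in HP1γ WT (log2 fold change -0.97, edgeR adjusted p = 0.0548), with groups apart, and Ddit3 was at -0.11. Between the KO groups, 2 of the 7 were called lower in HP1α KO and 0 higher, beside 16.8% and 16% of all genes. In HP1γ KO, Trib3 was at 0.55 and Atf5 at -0.41, and in HP1α KO, Psat1 was at -0.12 and Atf5 at -0.08, none of them called.

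Within groups the 9 genes did not move as one. On log2 CPM with each group's mean removed, 18 of the 36 pairs of members had a positive Pearson correlation over the 16 samples, with a median r of -0.02. Phlda3 and Zmat3 had the highest r (0.49), Cdkn1a and Sesn2 came next (0.48), and Cdkn1a with Zmat3 (-0.75) and Cdkn1a with Ccng1 (-0.67) were the lowest. The 5 genes whose pattern was most like that of Cdkn1a, among 15758 genes, were Atf3 (r = 0.98), Slc25a25 (0.96), Cish (0.94), Wsb1 (0.94) and Klf9 (0.93), none of them a member. Those most like Trp53 were Btbd19 (0.89), Pip4p2 (0.88), Gm45606 (0.88), Il6ra (0.87) and Dpysl2 (0.87).

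For the others the most similar gene was Hif1a for Trp53inp1 (r = 0.96), Bid for Zmat3 (0.94), Acp6 for Aen (0.94), Uba1 for Ccng1 (0.94), Nid1 for Sesn2 (0.93), Rpn1 for Phlda3 (0.93) and Cabyr for Mdm2 (0.86). These values describe 16 libraries, whose depth, handling and cell composition all genes share, and the highest of very many correlations over 16 points is large by selection.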

How the data were processed

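Gene-level data of 16 samples were used. Per the labels and the study's methods, libraries (Illumina Stranded mRNA Prep, paired reads of 150 bp) were trimmed with Trim Galore, aligned to GRCm39 with STAR and quantified with Salmon on Ensembl genes. The authors deposited estimated counts per gene, without normalization (11.6% of the values are not whole), and a table of TPM, which the authors scaled to transcript length and which keeps no depth. A treatment label and the design text that speak of transferred cells do not match the memory cell experiment and were not used.

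Estimated counts were rounded and tested with R 4.3.3 and edgeR 4.0.16 (TMM, filterByExpr with a minimum count of 10, glmQLFit, glmQLFTest, Benjamini-Hochberg adjustment over all genes tested, calls at an adjusted p under 0.05). Each comparison was fitted on its own 8 samples and the interaction on all 16. CPM were scaled over the 16 samples. Groups and replicate numbers follow the submitters' titles and genotypes. Summed marker levels were compared by two-sided exact permutation tests, and some single markers are not reported here. Likeness of patterns was computed on log2 CPM with a prior count of 2. The scripts were tested on simulated data.

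The members and all lists were chosen with earlier results of these data known. The genes named are the 9 members, Cbx5, Cbx3, from each p53-related list and comparison the called genes (up to 10, smallest p first) or, with none called, the 2 of smallest p, and the 5 genes most like Cdkn1a and Trp53. Called members of the lists between the KO groups are mostly given as counts. The comparison of the KO groups, the averages over a line and the ranges over 8 samples were chosen after seeing the data, as were the genes most like the other members and the gaps between ranges. Alternatives were DESeq2 1.42.0 (the tool of the study), RLE size factors, no filter, a minimum of 10 counts in each sample, one fit over the 16 samples, a block for the replicate number, limma 3.58.1 on log2(TPM + 1) and log2(TPM + 0.1), an absolute log2 fold change above 1 as a second threshold, and the omission of each sample. Coordinates come from a GENCODE annotation of GRCm39, which is not the release the counts were made on. Promoters are those of RefSeq, and shared sequence was looked up with blastn 2.17.0.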

Additional observations from a re-analysis of the deposited data

Results flagged for a closer look

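Cdkn1a in HP1α KO replicate 3, at 100.2 CPM, stood far from the other HP1α KO samples (35.9, 37.4 and 39.3 CPM). It was marked because its gap to the next sample took up a larger share of the range of the group than Dixon's 95% critical value for 4 samples. It was the only value so marked among 36 groups of 4 (each of the 9 genes in each of the 4 groups), and chance marks about 1 in 20 such groups. Without this sample the log2 fold change of Cdkn1a between HP1α KO and WT was -0.29, against 0.22 with it, and neither was called by edgeR.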

How the results depend on the processing

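The number of the 9 genes called stayed at 0 in both KO against WT comparisons and in their interaction under all alternatives run, and was 5 between the WT groups. That number was 6 with DESeq2 or one fit of all 16 samples, 4 without a filter, 1 with the second threshold, 3 with limma on TPM, with a pseudocount of 1 or 0.1, 1 to 5 with a sample left out, and 7 (added after seeing the data) with the KO groups or the averages of each line. Apart from the second threshold, which of the 9 only Cdkn1a passed, Sesn2 was called in 16 of 16 alternatives (those added later not counted), Cdkn1a in 14, Trp53inp1 in 11, Trp53 in 8, Aen in 6 and Mdm2 in 2. Replicate numbers were not taken to pair samples, since correlations of same-numbered samples averaged 0.162 in the HP1α line (lowest 0.0947), 0.0877 in the HP1γ line and -0.119 between the WT groups, and 3, 2 and 0 of 4 pairs matched best with their own number. With the number as a block, 2 genes (Cdkn1a and Sesn2) were called between the WT groups and 0 elsewhere. In HP1α KO the block moved the edgeR unadjusted p of Zmat3 from 0.0519 to 0.0179 (adjusted p = 0.709). It moved that of Cdkn1a from 0.585 to 0.297.

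Signs reversed for values near 0: HP1γ KO Mdm2 (0.0493 and 0.0498 on TPM with a pseudocount of 1 and 0.1) and Aen (0.000327 with 0.1), and Zmat3 between the lines (-0.13 in KO, -0.0207 averaged). With samples left out, log2 fold changes ran in HP1α KO from -0.0535 to 0.0297 (Trp53), -0.29 to 0.49 (Cdkn1a), -0.202 to 0.00618 (Ccng1) and -0.194 to 0.0709 (Phlda3), in HP1γ KO from -0.0357 to 0.00101 (Mdm2), -0.0487 to 0.0905 (Sesn2) and -0.0700 to 0.0133 (Aen), between the WT groups from -0.120 to 0.0264 (Phlda3), and in the interaction from -0.59 to 0.19 (Cdkn1a) and -0.0460 to 0.0198 (Mdm2). The causes were not tested. Of the values of single genes, 598 kept direction and side of the threshold, 28 reversed, 6 gained and 25 lost the call. By group, 2 members changed place in the TPM order in HP1α KO, 4 in HP1α WT, 2 in HP1γ KO and 2 in HP1γ WT.

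Over all genes, calls in HP1α KO were 0 (edgeR), 5 (DESeq2) and 1 (limma, or no filter). In HP1γ KO they were 49 by edgeR, 252 by DESeq2, 96 in one fit of all samples, 31 with at least 10 counts and 28 or 32 by limma. Between the WT groups they were 1896, 577 with the block, 1175 or 1210 by limma and 573 to 2185 with a sample left out, and in the interaction 8, or 79 by DESeq2, 14 without a filter, 13 with the block and 10 or 4 by limma. Phlda3, at 60 to 134 counts, and Cdkn1a, by its spread, had the widest intervals.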
